A study of Mus musculus with 19 samples.

Results

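Collagen genes were followed in implanted tumours of 4T1, a carcinoma line from the mouse mammary gland, with and without a knockdown of LDHA (LDHA-KD), the lactate dehydrogenase subunit that turns pyruvate into lactate at the end of glycolysis. A collagen gene was any gene whose symbol is Col, a type number, the letter a and a chain number. Of the 46983 genes counted, 44 had such a symbol, and 33 reached at least 1 CPM (counts per 1000000 counted) in at least 4 of the 19 libraries. These 33 members were 10 fibrillar collagens, 6 basement membrane collagens and 17 collagens of other kinds. The tumours formed 4 groups. LDHA-KD tumours, grown from the line named 4T1-KD, received anti-CTLA-4 (n = 5) or IgG (n = 5), and control tumours, grown from the line named 4T1-Sc, received anti-CTLA-4 (n = 5) or IgG (n = 4, numbered 1, 3, 4 and 5). Values by sample follow the replicate numbers. Anti-CTLA-4 blocks an inhibitory receptor of T cells, and IgG is its control antibody. In all groups 1000000 cells were implanted into syngeneic BALB/cAnN mice, and 3 antibody doses were given 3 days apart, beginning 3 days after implantation. Each genotype was a single named line, so the knockdown and any other difference between these lines cannot be told apart. The sources used here do not give how the knockdown was made, the age of the mice or whether each sample was a separate animal, so a p-value here reflects only the spread between the samples of a group.

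Collagens are secreted proteins whose chains wind around each other into a helix rich in glycine and proline. Fibrillar collagens assemble into the staggered fibrils that give connective tissue its tensile strength, and in tumours they are made mainly by fibroblasts. Basement membrane collagens form sheet-like networks under epithelium and endothelium. The remaining types decorate fibrils, build beaded filaments, anchor epithelium to the underlying matrix or sit in the plasma membrane. Chains are hydroxylated, glycosylated and folded in the endoplasmic reticulum, exported, trimmed at their ends by proteases and crosslinked by lysyl oxidases outside the cell. Polyadenylated RNA of whole tumour tissue was sequenced, so tumour cells and host cells were measured together, and fewer cells of a type and less RNA per cell cannot be told apart.

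Libraries held 31.8 to 43.3 gene counts each, in units of 1000000. The targeted gene was low in every library labelled LDHA-KD. Ldha, on chromosome 7, 46841475 to 46855627 (coordinates here and below are those of GENCODE on GRCm38), had 566, 485, 584, 525 and 545 CPM in LDHA-KD anti-CTLA-4 tumours and 478, 469.9, 452, 506 and 519 CPM in LDHA-KD IgG tumours, against 2244, 1524, 1955, 1910.3 and 1935 CPM in control anti-CTLA-4 tumours and 1926, 1624, 1567 and 1283 CPM in control IgG tumours. On a principal component analysis the first component (51.3% of the variance) separated LDHA-KD from control tumours. On the second (19.5%), the 4 lowest scores were those of replicates 3 and 5 of the LDHA-KD anti-CTLA-4 group (-32.3 and -27.7) and of replicates 3 and 5 of the control anti-CTLA-4 group (-19.1 and -15.2). They did not form a set of their own, since control anti-CTLA-4 replicate 1 followed at -9.67, and at the other end LDHA-KD IgG replicate 2 and control IgG replicate 5 scored 19.6 and 21.3. Results that changed without these 4 low-scoring libraries are given with and without them. The share of reads that matched no gene feature in the counting ran from 8.42% to 13.8%, and the highest value was that of LDHA-KD anti-CTLA-4 replicate 3.

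The 33 collagen genes took 0.568% to 1.15% of the scaled count total of a library (median 0.708%). That total, on which CPM rests, differs somewhat from the number of reads counted. Col1a1, Col1a2 and Col3a1 together held 36.1% to 55.8% of the summed collagen CPM. Levels of different genes were compared as mean CPM per kilobase of annotated exon over the 19 libraries. On that scale Col3a1, whose chains form type III collagen, was highest at 166, followed by Col6a1 of the beaded filament collagen VI at 137 and Col1a1 of type I collagen at 125. The basement membrane chain Col4a1 stood at 84.6, Col1a2 at 76.8, Col4a2 at 54.3, Col5a2 at 47.9 and Col18a1 at 41.7 CPM per kilobase. The lowest were Col9a1 at 0.115, Col11a2 at 0.176, Col11a1 at 0.182 and Col9a3 at 0.188. So the transcripts of type III, VI, I and IV collagen made up the upper end of the order, and chains best known from cartilage lay at its lower end. The length counts every annotated exon base of a gene, 12426 for Col1a2 and 4380 for Col6a1, so places in the order depend on it. By mean CPM alone Col1a2 ranked 2 and Col6a1 ranked 5, the reverse of their places per kilobase.

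Of the 33 members, 25 had at least 1 CPM in every library. The 8 others were low, and Col9a3 with 4 libraries and Col9a1 with 5 at that level lay just inside the limit. Just outside it were Col6a4, with 3 libraries and 0.143 to 1.88 CPM, and Col8a2, with 1 library and 0.188 to 1.03 CPM. Col13a1 passed through 2 of 10 LDHA-KD and 9 of 9 control libraries, and Col20a1 through 10 of 10 LDHA-KD and 3 of 9 control libraries. These genes entered because of the genotype in which they were high, so their difference is given as a value and supports no count. The 9 other symbols below the limit (Col2a1, Col4a3, Col4a4, Col9a2, Col10a1, Col19a1, Col22a1, Col25a1 and Col26a1) had less than 1 CPM in every library. All 33 members passed the filter for testing.

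Summed over a class, fibrillar collagens had 4670.0 ± 1955 CPM in LDHA-KD anti-CTLA-4 tumours and 3311 ± 321 CPM in LDHA-KD IgG tumours, against 4229 ± 1090.5 CPM in control anti-CTLA-4 tumours and 4854 ± 1079 CPM in control IgG tumours (mean ± SD, n = 5, 5, 5 and 4). The 5 LDHA-KD IgG tumours lay between 2969 and 3826 CPM, and the 4 control IgG tumours between 3326 and 5844 CPM, so the ranges overlapped through control IgG replicate 1. The LDHA-KD anti-CTLA-4 tumours were the most spread out. Their fibrillar sums were 2831, 2927, 7588, 4749 and 5255 CPM, a 2.68-fold range, against a 1.29-fold range in LDHA-KD IgG tumours. Replicate 3 held the highest fibrillar sum of all 19 tumours and replicate 1 the lowest. The basement membrane sum moved less, with 1447 ± 129 CPM in LDHA-KD anti-CTLA-4 tumours, 1362 ± 48.5 CPM in LDHA-KD IgG tumours, 1393 ± 160.3 CPM in control anti-CTLA-4 tumours and 1496 ± 353 CPM in control IgG tumours. The other collagens summed to 2027 ± 320.0 CPM in LDHA-KD anti-CTLA-4 tumours, 1727 ± 97.3 CPM in LDHA-KD IgG tumours, 2157 ± 419 CPM in control anti-CTLA-4 tumours and 2464 ± 482 CPM in control IgG tumours. Under anti-CTLA-4 the mean log2 fibrillar sum of LDHA-KD tumours minus that of control tumours was 0.08. This difference turned to -0.12 without LDHA-KD anti-CTLA-4 replicate 3, to -0.03 without control anti-CTLA-4 replicate 1 and to -0.21 without the 4 low-scoring libraries. No p was computed for a sum over members.

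**Figure D1:**
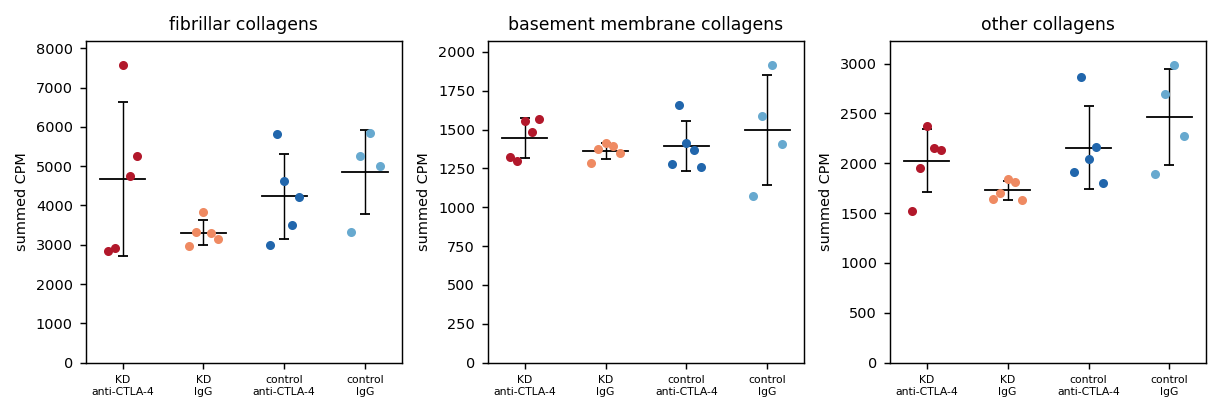
Summed CPM of the fibrillar (10 genes), basement membrane (6 genes) and other collagens (17 genes) in each tumour (points), with the group mean (bar) and SD (whisker), by genotype and antibody. The LDHA-KD IgG tumours form a tight cluster at a low fibrillar sum, and LDHA-KD anti-CTLA-4 tumours spread over a 2.68-fold range.

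Under IgG, 6 of 10 fibrillar collagen genes were lower in LDHA-KD than in control tumours at an adjusted p below 0.05 by edgeR's quasi-likelihood test, and 0 were higher, by edgeR, DESeq2 and limma voom alike. The 6 were Col1a1, Col1a2, Col5a2, Col5a3, Col11a1 and Col27a1. Log2 fold changes are of LDHA-KD over control tumours unless said otherwise, and stand with their standard error (±). Leaving out Col13a1 and Col20a1, 12 of 31 collagen genes were lower and 1 higher. Of all 16763 genes tested in this comparison, 34.3% were called, 17.5% lower and 16.8% higher. The median log2 fold change was -0.79 over the fibrillar genes and -0.46 over the 31 members, beside -0.00165 over all genes. In the comparison of the same genotypes under anti-CTLA-4, 0 of 10 fibrillar genes were called in either direction by edgeR, DESeq2 or limma voom, with 1 at an unadjusted p below 0.05 (48.9% of all genes). The fibrillar median there was -0.03, beside 0.00586 over all genes, and 40.0% of all genes were called, 20.2% higher and 19.8% lower. The counts change with single libraries: without LDHA-KD anti-CTLA-4 replicate 3, 2 fibrillar genes were called lower under anti-CTLA-4, and 1 was without control anti-CTLA-4 replicate 1. Without the 4 low-scoring libraries, 3 were called lower, and 4308 genes of all were called there instead of 6711. All 4 belong to the anti-CTLA-4 groups, so that fit compares fewer tumours, namely replicates 1, 2 and 4 of each group. Without LDHA-KD anti-CTLA-4 replicate 1, LDHA-KD anti-CTLA-4 replicate 2 or control anti-CTLA-4 replicate 2, 1 fibrillar gene was called higher under anti-CTLA-4.

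Type I collagen, the main component of most fibrils, is built from the products of Col1a1 (chromosome 11, 94936224 to 94953042) and Col1a2 (chromosome 6, 4504814 to 4541544). Col1a1 had 508, 451, 1472, 813 and 1058 CPM in LDHA-KD anti-CTLA-4 tumours and 507, 575, 630.0, 518 and 515 CPM in LDHA-KD IgG tumours, against 741, 1169, 1085, 679 and 873 CPM in control anti-CTLA-4 tumours and 719, 1047, 1283 and 960.2 CPM in control IgG tumours. All 5 LDHA-KD IgG tumours were below all 4 control IgG tumours, while LDHA-KD anti-CTLA-4 tumours held both the lowest and the highest value of the 19. Relative to control, Col1a1 in LDHA-KD tumours had a log2 fold change of -0.87 ± 0.26 (adjusted p 0.0156) under IgG and -0.08 ± 0.25 (adjusted p 0.823) under anti-CTLA-4. Without control IgG replicate 4, the value under IgG was -0.73 with an adjusted p of 0.0565, so that call rests in part on this tumour.

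Col1a2 had 603, 594, 1695, 1014 and 1164 CPM in LDHA-KD anti-CTLA-4 tumours and 612, 703, 762, 693 and 624 CPM in LDHA-KD IgG tumours, against 778, 1322, 1065, 867 and 989 CPM in control anti-CTLA-4 tumours and 868, 1195, 1361 and 1219 CPM in control IgG tumours. As for Col1a1, the IgG groups did not overlap and replicate 3 of the LDHA-KD anti-CTLA-4 tumours was highest. Its log2 fold change was -0.77 ± 0.24 (adjusted p 0.0162) under IgG and 0.01 ± 0.22 (adjusted p 0.967) under anti-CTLA-4. The Col1a2 call under IgG passed the threshold without each of the 19 libraries in turn, with an adjusted p of at most 0.0483.

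Type III collagen is made from Col3a1 (chromosome 1, 45311538 to 45349706) alone and found together with type I in fibrils of soft tissue and vessels. Unlike the type I genes, Col3a1 was not called under IgG. Its highest tumour was replicate 3 of the LDHA-KD anti-CTLA-4 group, as for Col1a1 and Col1a2. Col3a1 had 1200.0, 1323, 3267, 2066 and 2073 CPM in LDHA-KD anti-CTLA-4 tumours and 1288, 1448, 1773, 1447 and 1391 CPM in LDHA-KD IgG tumours, against 716, 2181, 1464, 1107 and 1529.9 CPM in control anti-CTLA-4 tumours and 949.8, 1949, 1991 and 1858 CPM in control IgG tumours. The groups overlapped under both antibodies. Control IgG replicate 1 lay far below the other 3 tumours of its group, which were between 1858 and 1991 CPM. For Col3a1 the log2 fold change was -0.20 ± 0.29 (adjusted p 0.637) under IgG and 0.50 ± 0.28 (adjusted p 0.154) under anti-CTLA-4. Without control anti-CTLA-4 replicate 2, the value under anti-CTLA-4 was 0.72 with an adjusted p of 0.0455.

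Type V collagen starts the assembly of type I fibrils and limits their width, and its chains come from Col5a1, Col5a2 and Col5a3. Col5a2 had 284, 318, 589.9, 455 and 472 CPM in LDHA-KD anti-CTLA-4 tumours and 296, 329.7, 360.3, 376 and 329 CPM in LDHA-KD IgG tumours, against 400.1, 671, 508, 502 and 455 CPM in control anti-CTLA-4 tumours and 509.8, 603, 644 and 621 CPM in control IgG tumours. Every LDHA-KD IgG tumour lay below every control IgG tumour, and the log2 fold change was -0.81 ± 0.17 (adjusted p 0.00122). Under anti-CTLA-4 it was -0.26 ± 0.16 (adjusted p 0.218), and -0.41 (adjusted p 0.0457) without LDHA-KD anti-CTLA-4 replicate 3. Col5a3, the least abundant type V chain, averaged 47.2 ± 7.84 CPM in LDHA-KD IgG tumours, against 92.4 ± 38.3 CPM in control IgG tumours (SD, n = 5 and 4), with a log2 fold change of -0.97 ± 0.31 (adjusted p 0.0224). This Col5a3 call was lost without LDHA-KD IgG replicate 1 (adjusted p 0.0518), control IgG replicate 3 (0.0601) or control IgG replicate 4 (0.102). Without the 4 low-scoring libraries, Col5a3 was called lower under anti-CTLA-4 as well (-0.91, adjusted p 0.0369). Col5a1 averaged 218 ± 12.1 CPM in LDHA-KD IgG tumours, against 299 ± 88.9 CPM in control IgG tumours, and its log2 fold change was -0.46 ± 0.21 (adjusted p 0.106). Without control IgG replicate 1, Col5a1 was called lower (-0.60, adjusted p 0.0465).

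The minor fibrillar genes Col11a1, Col11a2, Col24a1 and Col27a1 are best known from cartilage and bone and were scarce here. Col11a1 had 0.977, 0.864, 1.93, 1.57 and 1.62 CPM in LDHA-KD anti-CTLA-4 tumours and 1.55, 1.49, 1.498, 1.45 and 1.22 CPM in LDHA-KD IgG tumours, against 0.764, 4.92, 2.08, 1.85 and 1.81 CPM in control anti-CTLA-4 tumours and 4.10, 2.93, 3.25 and 8.27 CPM in control IgG tumours. Control IgG replicate 5 was the highest, and the IgG groups did not overlap. The log2 fold change of Col11a1, whose product sets the thickness of cartilage fibrils and which is also made by activated fibroblasts, was -1.68 ± 0.39 (adjusted p 0.00240) under IgG, the most negative of the fibrillar genes, and -0.72 ± 0.37 (adjusted p 0.131) under anti-CTLA-4. The second of these values was -0.95 with an adjusted p of 0.0378 without control anti-CTLA-4 replicate 1. Col27a1, a fibrillar collagen of developing cartilage, averaged 5.43 ± 0.534 CPM in LDHA-KD IgG tumours, against 9.71 ± 1.37 CPM in control IgG tumours, with no overlap and a log2 fold change of -0.84 ± 0.24 (adjusted p 0.0107). Under anti-CTLA-4 it was -0.37 ± 0.23 (adjusted p 0.206) and -0.63 (adjusted p 0.0180) without LDHA-KD anti-CTLA-4 replicate 3. Col24a1, a fibrillar collagen of bone and cornea, had a log2 fold change of -0.67 ± 0.32 (adjusted p 0.114) under IgG and 0.51 ± 0.30 (adjusted p 0.180) under anti-CTLA-4. Without LDHA-KD anti-CTLA-4 replicate 1, that second value was 0.69 (adjusted p 0.0462). Col11a2, at 0.638 to 2.46 CPM, gave 0.24 ± 0.26 (adjusted p 0.517) under IgG and 0.54 ± 0.24 (adjusted p 0.0805) under anti-CTLA-4. Without LDHA-KD anti-CTLA-4 replicate 2, the anti-CTLA-4 value of Col11a2 passed the test (0.65, adjusted p 0.0435).

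**Figure D2:**
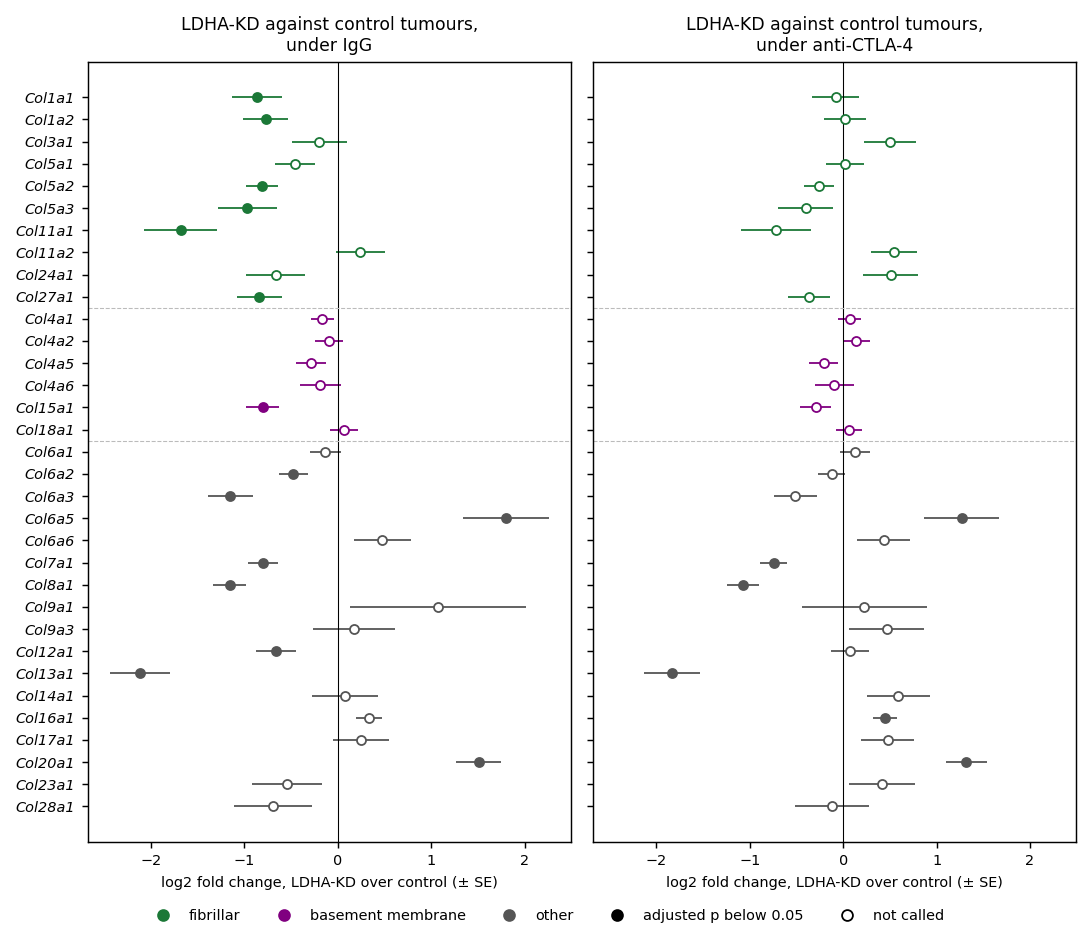
Log2 fold change (± SE) of LDHA-KD over control tumours for the 33 collagen genes under IgG (left) and under anti-CTLA-4 (right), grouped into fibrillar, basement membrane and other collagens from top to bottom, with filled points for an adjusted p below 0.05. Under IgG 13 genes are filled on the negative side and 2 on the positive side, and under anti-CTLA-4 3 are filled on each side. Without Col13a1 and Col20a1 these counts are 12 and 1 under IgG, and 2 and 2 under anti-CTLA-4. Of all genes, 34.3% were called under IgG and 40.0% under anti-CTLA-4.

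Of the 6 basement membrane collagen genes, 1 was lower in LDHA-KD tumours under IgG and 0 were called under anti-CTLA-4, in each case with 0 called higher by edgeR, DESeq2 and limma voom. Of all genes, 34.3% were called under IgG and 40.0% under anti-CTLA-4, both larger shares than in this class. The class medians were -0.18 and -0.02 on the log2 scale. At an unadjusted p below 0.05 there was 1 under IgG (43.8% of all genes) and 0 under anti-CTLA-4 (48.9% of all genes). The type IV chains of almost every basement membrane, Col4a1 and Col4a2, are neighbours on chromosome 8 and are read in opposite directions, with 22 bases of overlap in the annotation. Col4a1 had 585, 569, 711, 685 and 739.6 CPM in LDHA-KD anti-CTLA-4 tumours and 552, 551, 634, 607 and 596 CPM in LDHA-KD IgG tumours, against 570.4, 737, 628, 619 and 581 CPM in control anti-CTLA-4 tumours and 479, 698, 854 and 607 CPM in control IgG tumours. Col4a2 had 332, 318, 437, 409 and 448 CPM in LDHA-KD anti-CTLA-4 tumours and 319, 309, 373, 337 and 346 CPM in LDHA-KD IgG tumours, against 336, 413, 373, 326 and 314 CPM in control anti-CTLA-4 tumours and 246, 395, 479 and 317 CPM in control IgG tumours. Control IgG replicate 1 was the lowest of the 19 tumours for both chains and control IgG replicate 4 the highest, so the control IgG group spanned all the others. The log2 fold changes were -0.17 ± 0.13 (adjusted p 0.342) for Col4a1 and -0.09 ± 0.15 (adjusted p 0.665) for Col4a2 under IgG. They were 0.07 ± 0.12 (adjusted p 0.676) and 0.14 ± 0.14 (adjusted p 0.449) under anti-CTLA-4, in the same order of genes.

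Types XV and XVIII collagen carry heparan or chondroitin sulphate chains and release endostatin-like fragments. Col15a1 had 49.9, 50.1, 95.0, 83.6 and 86.1 CPM in LDHA-KD anti-CTLA-4 tumours and 53.2, 48.7, 59.5, 61.0 and 55.8 CPM in LDHA-KD IgG tumours, against 74.7, 106, 98.5, 77.2 and 90.1 CPM in control anti-CTLA-4 tumours and 74.8, 105, 115 and 93.6 CPM in control IgG tumours. LDHA-KD IgG tumours lay below all control IgG tumours, and in the LDHA-KD anti-CTLA-4 group replicates 1 and 2 lay near the IgG level while replicates 3, 4 and 5 reached that of the controls. Col15a1 had a log2 fold change of -0.80 ± 0.18 (adjusted p 0.00154) under IgG and -0.29 ± 0.17 (adjusted p 0.170) under anti-CTLA-4. Col18a1 had 304, 295, 265, 257 and 254 CPM in LDHA-KD anti-CTLA-4 tumours and 304, 398, 302, 325 and 294 CPM in LDHA-KD IgG tumours, against 233, 331, 275, 264 and 215 CPM in control anti-CTLA-4 tumours and 207, 318, 397 and 322 CPM in control IgG tumours. All groups of Col18a1 overlapped, and its log2 fold change was 0.06 ± 0.15 (adjusted p 0.783) under IgG and 0.06 ± 0.14 (adjusted p 0.763) under anti-CTLA-4. The X-linked pair Col4a5 and Col4a6, chains of the basement membranes of kidney, skin and smooth muscle, averaged 52.5 ± 7.39 and 4.40 ± 1.01 CPM in LDHA-KD IgG tumours, against 64.2 ± 2.58 and 5.02 ± 0.864 CPM in control IgG tumours. Col4a5 did not overlap between the IgG groups, but its log2 fold change of -0.29 ± 0.16 (adjusted p 0.184) did not pass. It passed with only the IgG groups in the fit (adjusted p 0.0420), with the replicate number as a block (0.0242) and without the 4 low-scoring libraries (0.0499). Its fold change under anti-CTLA-4 was -0.21 ± 0.15 (adjusted p 0.302). With replicate 3 of the control anti-CTLA-4 group left out, it was -0.34 (adjusted p 0.0417). Col4a6 gave -0.19 ± 0.22 (adjusted p 0.549) under IgG and -0.10 ± 0.21 (adjusted p 0.738) under anti-CTLA-4.

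Among the other collagens, leaving out Col13a1 and Col20a1, 5 of 15 were lower and 1 higher in LDHA-KD tumours under IgG, and 2 were lower and 2 higher under anti-CTLA-4. Of all genes, 34.3% were called under IgG (17.5% lower, 16.8% higher) and 40.0% under anti-CTLA-4 (19.8% lower, 20.2% higher). Under anti-CTLA-4 this class thus had a smaller share of calls than all genes. Col7a1 and Col8a1 were called lower, and Col6a5 higher, under both antibodies. For Col7a1 and Col8a1 the genotypes did not overlap within either antibody. Col13a1 was also called lower and Col20a1 higher under both antibodies, without overlap. Both entered because of the genotype in which they were high, so their differences are given as values only. Over the 31 members other than Col13a1 and Col20a1, 11 were lower and 0 higher without overlap under IgG, and 2 lower and 0 higher under anti-CTLA-4. Of all genes tested, 15.2% were lower without overlap and 15.1% higher without overlap under IgG, and 11.6% in each direction under anti-CTLA-4. The 250 bases ahead of the annotated start of Col7a1, Col8a1, Col13a1 and Col6a5 are shown because these genes were called in the same direction under both antibodies and no annotated exon lies in the window. They come from the RefSeq promoter table (GRCm38.p6), in the direction of transcription, and capitals mark matches on either strand to GGGCGG (the GC box bound by Sp factors), CCAAT and TATAAA, which do not overlap in these windows.
Col7a1 promoter, chr9:108953336-108953585, plus strand: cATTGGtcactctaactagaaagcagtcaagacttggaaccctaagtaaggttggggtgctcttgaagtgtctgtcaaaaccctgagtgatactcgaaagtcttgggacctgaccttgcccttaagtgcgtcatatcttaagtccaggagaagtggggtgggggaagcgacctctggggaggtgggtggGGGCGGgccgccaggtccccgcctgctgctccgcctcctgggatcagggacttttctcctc
Col8a1 promoter, chr16:57754738-57754987, minus strand: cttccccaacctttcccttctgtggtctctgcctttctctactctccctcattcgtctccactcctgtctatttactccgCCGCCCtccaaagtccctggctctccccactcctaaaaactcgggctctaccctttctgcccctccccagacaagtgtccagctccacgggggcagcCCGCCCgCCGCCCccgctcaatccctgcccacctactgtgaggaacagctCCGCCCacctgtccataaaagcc
Col13a1 promoter, chr10:61979109-61979358, minus strand: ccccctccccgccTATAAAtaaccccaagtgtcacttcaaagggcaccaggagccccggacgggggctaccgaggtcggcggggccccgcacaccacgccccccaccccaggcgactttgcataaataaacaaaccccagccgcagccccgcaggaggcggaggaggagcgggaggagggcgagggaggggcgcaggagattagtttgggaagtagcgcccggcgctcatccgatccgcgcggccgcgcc
Col6a5 promoter, chr9:105960644-105960893, minus strand: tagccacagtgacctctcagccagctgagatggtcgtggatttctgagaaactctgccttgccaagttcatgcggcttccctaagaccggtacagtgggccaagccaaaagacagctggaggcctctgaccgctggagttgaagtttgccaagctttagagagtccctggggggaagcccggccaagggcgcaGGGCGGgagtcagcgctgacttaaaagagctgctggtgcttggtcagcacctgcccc

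Within these windows Col7a1 had 1 GC box, 61 bases ahead of the start, and 1 CCAAT match on the other strand at the far end. Col8a1 had 4 GC boxes, all on the other strand, Col6a5 had 1 GC box, and Col13a1 had 1 TATAAA match, 237 bases ahead of the start. Among the 32851 promoters of the table, 32.7% held a GC box, 33.8% a CCAAT and 12.4% a TATAAA in the same length, on either strand. Of 31 promoters of the 28 members with an entry, 18 held a GC box, 11 a CCAAT and 4 a TATAAA. A match describes the letters of these windows and is not evidence of a bound factor.

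Col7a1 (chromosome 9, 108953586 to 108984875) encodes the anchoring fibril collagen that ties epithelial basement membrane to the stroma. Col7a1 had 105, 118, 152, 121 and 142 CPM in LDHA-KD anti-CTLA-4 tumours and 138, 161, 107, 111 and 127 CPM in LDHA-KD IgG tumours, against 224, 245, 262, 183 and 155 CPM in control anti-CTLA-4 tumours and 188, 224, 277 and 211 CPM in control IgG tumours. Its log2 fold change was -0.80 ± 0.16 (adjusted p 0.000561) under IgG and -0.74 ± 0.15 (adjusted p 0.000608) under anti-CTLA-4. Col8a1 (chromosome 16, 57624258 to 57754737) encodes a short-chain collagen of vessel walls and of the corneal endothelium. Col8a1 had 63.3, 67.6, 67.5, 63.0 and 52.5 CPM in LDHA-KD anti-CTLA-4 tumours and 68.3, 104, 46.9, 74.0 and 66.3 CPM in LDHA-KD IgG tumours, against 96.0, 164, 108, 143 and 149 CPM in control anti-CTLA-4 tumours and 162, 151, 143 and 186 CPM in control IgG tumours. Every LDHA-KD tumour was below every control tumour of the same antibody, with log2 fold changes of -1.16 ± 0.18 (adjusted p 5.40e-05) under IgG and -1.07 ± 0.17 (adjusted p 6.56e-05) under anti-CTLA-4. Col13a1 (chromosome 10, 61838236 to 61979108), a transmembrane collagen at sites where cells hold on to matrix, was scarce. Col13a1 had 0.767, 0.513, 1.73, 0.883 and 1.04 CPM in LDHA-KD anti-CTLA-4 tumours and 0.552, 0.615, 0.795, 0.556 and 0.898 CPM in LDHA-KD IgG tumours, against 4.26, 2.95, 4.64, 2.95 and 2.84 CPM in control anti-CTLA-4 tumours and 3.33, 3.34, 3.92 and 1.34 CPM in control IgG tumours. Its log2 fold change was -2.12 ± 0.32 (adjusted p 5.06e-05) under IgG, the most negative of the 33 members, and -1.83 ± 0.30 (adjusted p 8.60e-05) under anti-CTLA-4. The calls of Col7a1 and Col8a1 in both comparisons held under each of the 10 processing alternatives and without each of the 19 libraries. Col13a1 became a member through the control libraries, so its difference is given as a value only.

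Collagen VI forms beaded filaments between basement membrane and interstitial fibrils, and its main form joins the products of Col6a1, Col6a2 and Col6a3. Col6a3 had 129, 206, 357, 281 and 326 CPM in LDHA-KD anti-CTLA-4 tumours and 176, 182, 269, 159 and 180.2 CPM in LDHA-KD IgG tumours, against 311, 458, 416, 362 and 305 CPM in control anti-CTLA-4 tumours and 302, 470.4, 573 and 375 CPM in control IgG tumours. LDHA-KD IgG tumours lay below all control IgG tumours, with replicate 3 above its group. For Col6a3 (chromosome 1, 90765923 to 90843971) the log2 fold change was -1.15 ± 0.24 (adjusted p 0.00103) under IgG and -0.51 ± 0.23 (adjusted p 0.0807) under anti-CTLA-4. Without LDHA-KD anti-CTLA-4 replicate 3 the second value was -0.65 (adjusted p 0.0366). Col6a1 had 577, 765, 597, 652 and 573 CPM in LDHA-KD anti-CTLA-4 tumours and 547, 466, 629.6, 689 and 513 CPM in LDHA-KD IgG tumours, against 574, 787, 456, 611 and 471 CPM in control anti-CTLA-4 tumours and 505, 718, 777 and 499.8 CPM in control IgG tumours. The groups of Col6a1 overlapped, and its log2 fold change was -0.14 ± 0.17 (adjusted p 0.563) under IgG and 0.13 ± 0.16 (adjusted p 0.547) under anti-CTLA-4. Col6a2 had 137, 169, 198, 198 and 182 CPM in LDHA-KD anti-CTLA-4 tumours and 153, 132, 173, 158 and 138 CPM in LDHA-KD IgG tumours, against 181, 255, 187, 177 and 163 CPM in control anti-CTLA-4 tumours and 152, 245, 266 and 178 CPM in control IgG tumours. Col6a2 was lower under IgG, with a log2 fold change of -0.48 ± 0.16 (adjusted p 0.0229) and overlapping groups, and -0.12 ± 0.15 (adjusted p 0.528) under anti-CTLA-4. The Col6a2 call under IgG was lost without LDHA-KD IgG replicate 2 (adjusted p 0.0571), LDHA-KD IgG replicate 5 (0.0541), control IgG replicate 3 (0.0898) or control IgG replicate 4 (0.104), and with library totals in place of scaling factors (0.0699).

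Col6a5 (chromosome 9, 105856078 to 105960643) and Col6a6 encode chains that can take the place of the Col6a3 product. Col6a5 moved in the other direction from Col6a3. Col6a5 had 10.8, 18.5, 35.5, 27.7 and 18.3 CPM in LDHA-KD anti-CTLA-4 tumours and 8.34, 5.26, 21.6, 10.0 and 13.2 CPM in LDHA-KD IgG tumours, against 6.67, 8.94, 15.1, 4.85 and 10.4 CPM in control anti-CTLA-4 tumours and 1.16, 5.95, 3.52 and 2.79 CPM in control IgG tumours. It was lowest in the control IgG tumours, all 4 of which were at or below 5.95 CPM, while each antibody pair of groups overlapped. The log2 fold change was 1.80 ± 0.46 (adjusted p 0.00520) under IgG and 1.27 ± 0.41 (adjusted p 0.0181) under anti-CTLA-4, and the second was 1.03 with an adjusted p of 0.0581 without LDHA-KD anti-CTLA-4 replicate 3. Col6a6, at 0.847 to 4.74 CPM, gave 0.48 ± 0.31 (adjusted p 0.250) under IgG and 0.43 ± 0.28 (adjusted p 0.235) under anti-CTLA-4.

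The fibril-associated collagens, which bind to fibril surfaces, did not move together. Col12a1 had 298, 444, 729, 552 and 600.4 CPM in LDHA-KD anti-CTLA-4 tumours and 366, 454, 408, 411 and 399 CPM in LDHA-KD IgG tumours, against 363, 742, 435, 539 and 412 CPM in control anti-CTLA-4 tumours and 467, 698, 744 and 669 CPM in control IgG tumours. Col12a1, which encodes a collagen of dense connective tissue and wound stroma, was lower under IgG, with a log2 fold change of -0.66 ± 0.22 (adjusted p 0.0228) and no overlap, and gave 0.07 ± 0.20 (adjusted p 0.797) under anti-CTLA-4. Its call was lost without LDHA-KD IgG replicate 1 (adjusted p 0.0521), control IgG replicate 3 (0.0549) or control IgG replicate 4 (0.0648), and with library totals only (0.0535). Col20a1 had 2.26, 1.67, 3.68, 2.40 and 2.66 CPM in LDHA-KD anti-CTLA-4 tumours and 2.92, 1.92, 1.47, 2.22 and 2.67 CPM in LDHA-KD IgG tumours, against 1.09, 1.01, 1.30, 0.751 and 0.935 CPM in control anti-CTLA-4 tumours and 0.900, 0.725, 0.893 and 0.627 CPM in control IgG tumours. Col20a1 (chromosome 2, 180986535 to 181018363), another fibril-associated chain of low abundance, was above control in all LDHA-KD tumours of the same antibody. The log2 fold changes were 1.51 ± 0.24 (adjusted p 0.000101) under IgG and 1.32 ± 0.22 (adjusted p 0.000120) under anti-CTLA-4. Col20a1 became a member mainly through the LDHA-KD libraries, so its difference is given as a value only. Col16a1 averaged 154 ± 23.9 CPM in LDHA-KD anti-CTLA-4 tumours, against 113 ± 15.4 CPM in control anti-CTLA-4 tumours (SD, n = 5 each), a log2 fold change of 0.44 ± 0.13 (adjusted p 0.00912). Without the 4 low-scoring libraries it was 0.33 (adjusted p 0.160). Under IgG Col16a1 gave 0.33 ± 0.14 (adjusted p 0.0635), which passed without control IgG replicate 4 (0.00961) or without LDHA-KD anti-CTLA-4 replicate 2 (0.0388). Col14a1 gave 0.07 ± 0.36 (adjusted p 0.897) under IgG and 0.59 ± 0.34 (adjusted p 0.169) under anti-CTLA-4. With replicate 2 of the control anti-CTLA-4 group left out, it was 0.98 (adjusted p 0.0168).

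The 5 other members, namely the cartilage chains Col9a1 and Col9a3, the hemidesmosome collagen gene Col17a1, the transmembrane collagen gene Col23a1 and Col28a1, were called in neither comparison. Their means over all tumours were 0.582, 0.726, 6.72, 4.84 and 2.27 CPM in that order. Under IgG their log2 fold changes were 1.07, 0.17, 0.25, -0.54 and -0.69, with adjusted p between 0.216 and 0.796. Under anti-CTLA-4 they were 0.23, 0.46, 0.48, 0.42 and -0.12, with adjusted p between 0.186 and 0.832. None of these values passed the test, and for Col9a1 the SE under IgG reached 0.94, the largest of the 33 members in the IgG comparison.

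**Figure D3:**
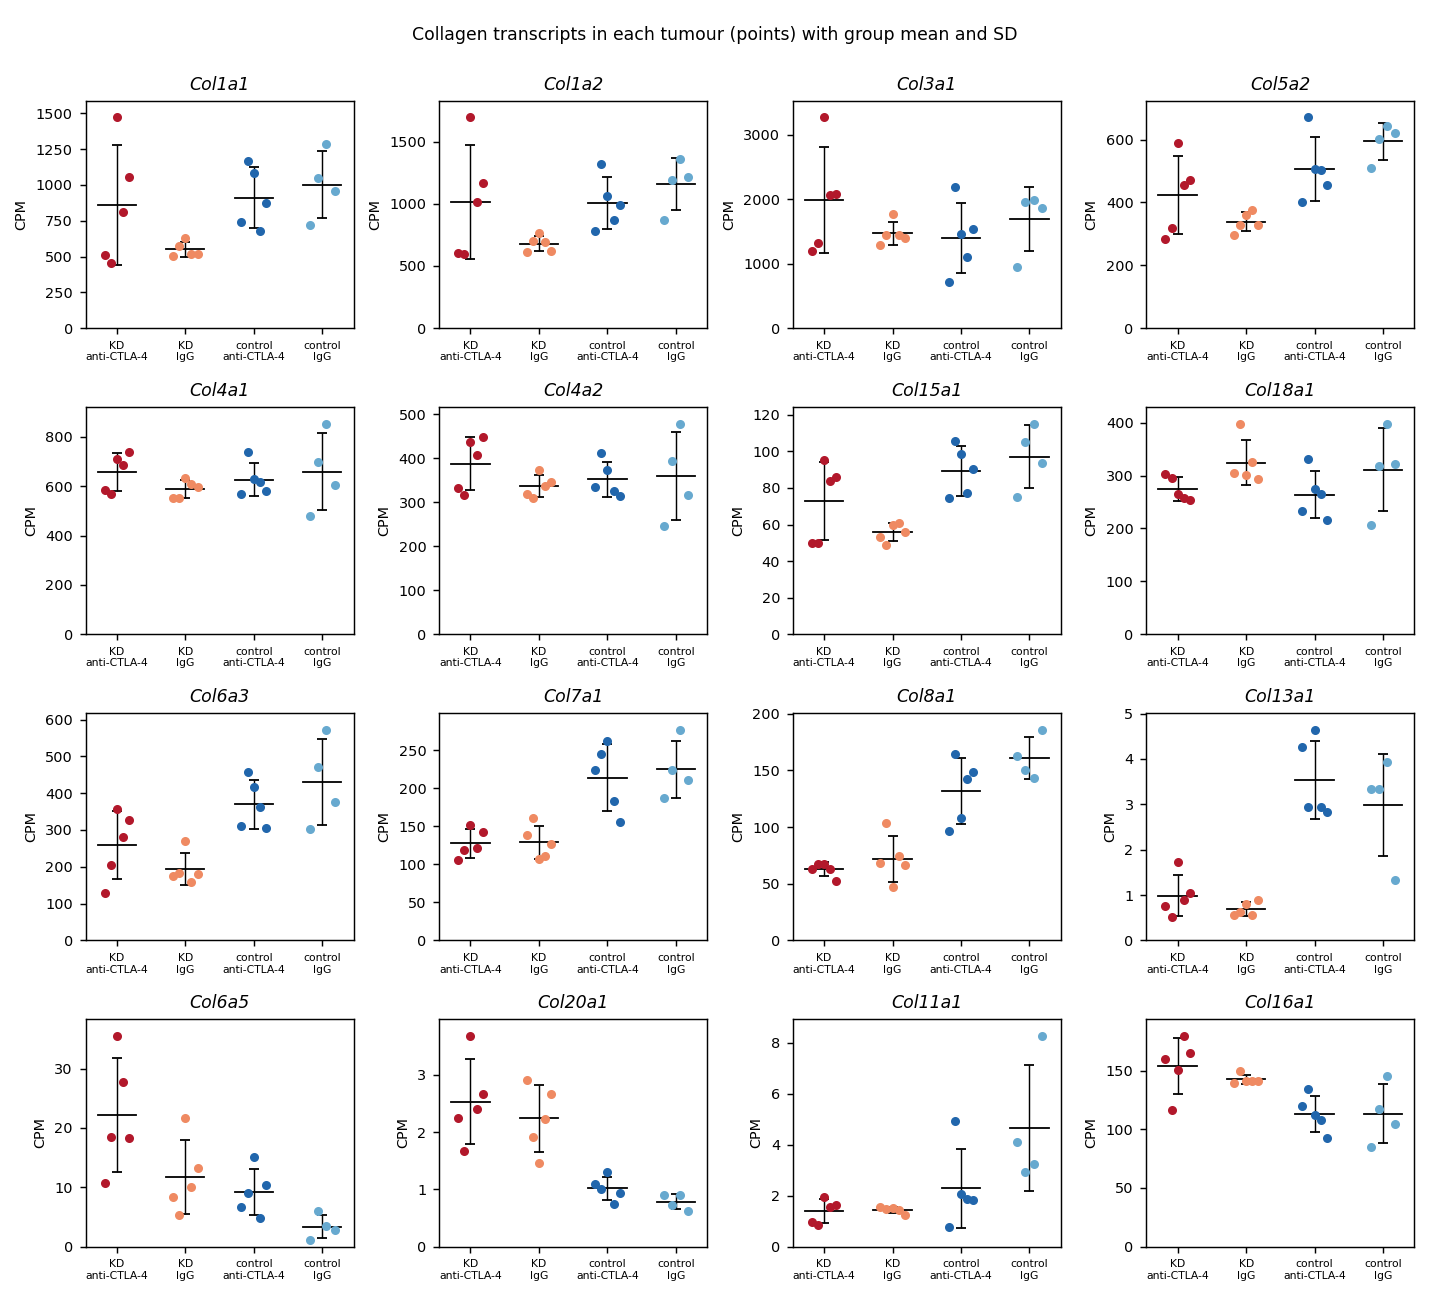
CPM of 16 collagen genes in each of the 19 tumours (points), with the group mean (bar) and SD (whisker), for LDHA-KD anti-CTLA-4, LDHA-KD IgG, control anti-CTLA-4 and control IgG tumours from left to right. Col8a1 and Col13a1 sit lower, and Col20a1 higher, in both LDHA-KD groups than in the control group of the same antibody, whereas Col1a1, Col1a2, Col5a2 and Col15a1 sit low in the LDHA-KD IgG tumours and spread widely in the LDHA-KD anti-CTLA-4 tumours.

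Because library scaling cancels in a ratio within a tumour, chains were also set against each other per kilobase of exon. The ratio of Col3a1 to Col1a1 was 1.61 ± 0.243 in LDHA-KD anti-CTLA-4 tumours and 1.79 ± 0.0923 in LDHA-KD IgG tumours, against 1.01 ± 0.241 in control anti-CTLA-4 tumours and 1.11 ± 0.190 in control IgG tumours (mean ± SD). All 10 LDHA-KD tumours, at 1.31 to 1.96, were above all 9 control tumours, at 0.646 to 1.29. That held under both antibodies. The type I pair and the pair Col4a1 and Col4a2 kept a narrow ratio. Col1a1 to Col1a2 ran from 1.42 to 1.93, a 1.36-fold range over the 19 tumours, and Col4a1 to Col4a2 from 1.44 to 1.73, a 1.20-fold range, while Col1a1 itself ranged 3.26-fold and Col4a1 1.78-fold. Col4a5 to Col4a6, a pair whose starts lie 1308 bases apart, ran from 11.3 to 18.96. The ratio of Col6a1 to Col6a2 was 5.73 to 8.58 in LDHA-KD tumours and 4.63 to 6.55 in control tumours, with overlap and a 1.85-fold range, wider than the 1.73-fold range of Col6a1. Col5a1 to Col5a2 was 0.597 to 0.898 in LDHA-KD tumours and 0.456 to 0.762 in control tumours, also with overlap and a 1.97-fold range. The level of each ratio depends on the exon lengths used, while a comparison of tumours within a ratio does not. By CPM alone Col1a1 to Col1a2 ran from 0.748 to 1.02. The ratios were described and not tested.

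**Figure D4:**
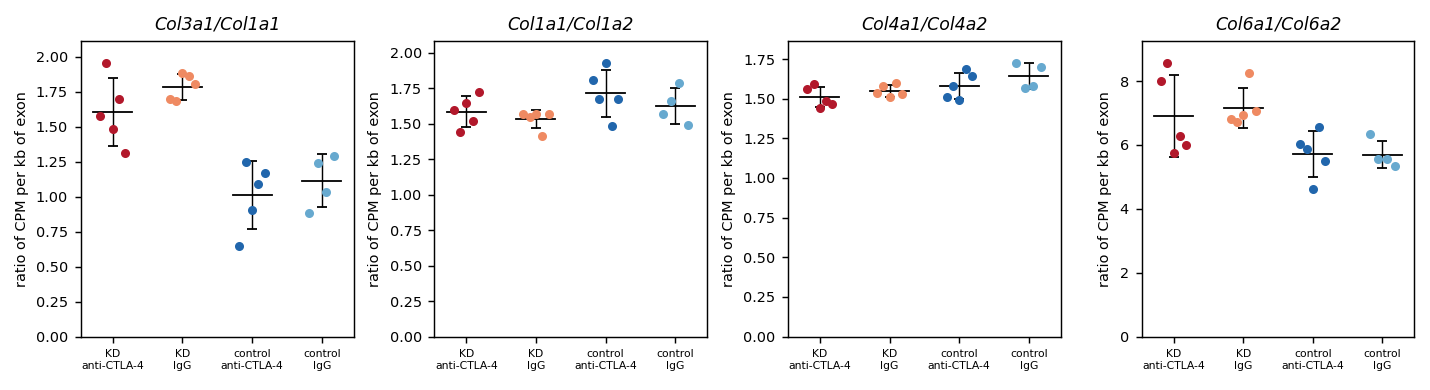
Ratios of collagen transcripts within each tumour (points), from CPM per kilobase of exon, with the group mean (bar) and SD (whisker). For Col3a1 over Col1a1 the 10 LDHA-KD tumours lie above the 9 control tumours, while Col1a1 over Col1a2 and Col4a1 over Col4a2 stay within narrow bands.

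Anti-CTLA-4 was compared with IgG within each genotype, which asks what the antibody did to collagen transcripts. In LDHA-KD tumours 0 of 33 collagen genes were called by edgeR, DESeq2 or limma voom, with 8 at an unadjusted p below 0.05. Of all genes 0 were called there by edgeR (0%) and 50 by DESeq2, and 11.9% had an unadjusted p below 0.05. The log2 fold change was above 0 for 27 of 33 members, among them 9 of 10 fibrillar genes (median 0.44). Of all genes 51.2% were below 0 (median -0.00485). Members were measured in the same tumours, so their signs are not independent of each other, here and below. Col1a1 gave 0.65 ± 0.25 (adjusted p 0.339), Col1a2 0.58 ± 0.23 (adjusted p 0.340) and Col15a1 0.39 ± 0.17 (adjusted p 0.371). In control tumours 0 of 33 were called by edgeR, DESeq2 or limma voom, with 3 at an unadjusted p below 0.05, beside 8.03% of all genes, of which edgeR called 0% and DESeq2 11 genes. There 23 of 33 members had a log2 fold change below 0, beside 50.9% of all genes, with -0.14 ± 0.27 (adjusted p 0.903) for Col1a1 and -0.27 ± 0.29 (adjusted p 0.816) for Col3a1. The difference between the antibody effects in LDHA-KD and in control tumours was tested as an interaction. It was above 0 for all 10 fibrillar genes (median 0.63), while 49.2% of all genes were below 0 (median 0.0033). An unadjusted p below 0.05 was found for 6 of 33 members (Col1a1, Col1a2, Col5a2, Col12a1, Col15a1 and Col24a1), beside 2.48% of all genes. After adjustment 0 of 33 members passed by edgeR, DESeq2 or limma voom, as 0 of all genes did by edgeR (0%). For Col1a1 the interaction was 0.79 ± 0.36 (adjusted p 0.9998) and for Col5a2 0.55 ± 0.24 (adjusted p 0.9998). So the smaller number of fibrillar calls under anti-CTLA-4 than under IgG is not shown to be a difference between the antibodies.

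The LDHA-KD anti-CTLA-4 group had the largest coefficient of variation (SD over mean) of the 4 groups for 15 of 33 members and the smallest for 5, among them Col8a1 and Col18a1. Its replicate 3 held the highest value of the 19 tumours for 11 of 33 members, Col1a1, Col1a2, Col3a1 and Col24a1 among them, and replicates 1 and 2 lay near the LDHA-KD IgG tumours for the fibrillar genes. Replicates 3 and 5 of this group are among the 4 low-scoring libraries, and 13.8% and 12.1% of their reads matched no gene feature, against 8.42% to 11.4% in replicates 1, 2 and 4. The summed fibroblast markers were 1268, 1104 and 1102 CPM in replicates 3, 4 and 5, against 869.9 and 881 CPM in replicates 1 and 2. The summed endothelial markers were 451, 371 and 387 CPM in replicates 3, 4 and 5, against 312 and 305 CPM in replicates 1 and 2. The summed epithelial markers ran the other way, at 2171, 2783 and 2333 CPM in replicates 3, 4 and 5, against 3348 and 3369 CPM in replicates 1 and 2. The part of these measures in the collagen values was not tested.

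**Figure D5:**
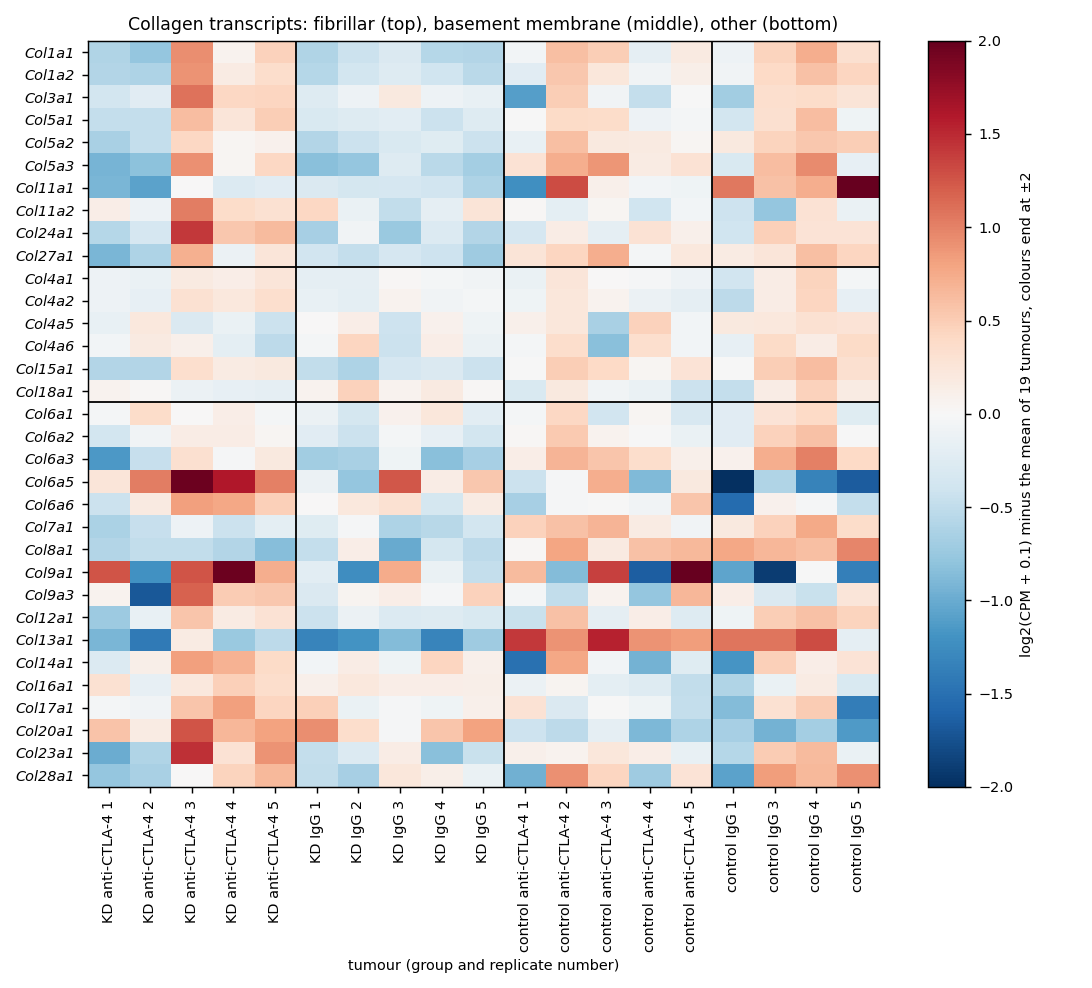
Log2(CPM + 0.1) of each collagen gene (vertical axis) in each tumour (horizontal axis), minus its mean over the 19 tumours, with fibrillar genes at the top, basement membrane genes in the middle and other collagens at the bottom, and colours ending at ±2. LDHA-KD anti-CTLA-4 replicate 3 is high across the fibrillar block, and the LDHA-KD IgG tumours are low there.

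Under IgG, each list of genes that act on collagens had more genes called lower than higher in LDHA-KD tumours. Under anti-CTLA-4 this did not hold for the fibril-associated proteoglycan list (1 lower, 2 higher) or the receptor list (2 lower, 3 higher). In the list of genes that modify and export collagen, 13 of 22 tested genes were lower and 1 higher under IgG (median log2 fold change -0.41), and 8 were lower and 2 higher under anti-CTLA-4 (median -0.21), beside 17.5% and 19.8% of all genes called lower. Serpinh1, the collagen-specific chaperone, averaged 413 CPM in LDHA-KD IgG tumours, against 663 CPM in control IgG tumours, a log2 fold change of -0.68 ± 0.08 (adjusted p 1.58e-06), and gave -0.55 ± 0.07 (adjusted p 8.66e-06) under anti-CTLA-4. Plod2, a lysyl hydroxylase that prepares stable crosslinks, gave -1.01 ± 0.12 (adjusted p 2.73e-06) under IgG and -0.90 ± 0.11 (adjusted p 5.97e-06) under anti-CTLA-4. Fkbp10, a folding enzyme that works with it, gave -1.24 ± 0.21 (adjusted p 0.000179) and Tram2, a translocon-associated protein, -0.42 ± 0.07 (adjusted p 0.000113) under IgG. Sec23a, part of the coat of export vesicles, was lower under anti-CTLA-4 (-0.41 ± 0.10 (adjusted p 0.00271)), and Mia3, the receptor that loads collagen into them, was higher (0.30 ± 0.06 (adjusted p 0.000460)).

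Of 13 tested genes for procollagen trimming and crosslinking, 5 were lower and 1 higher under IgG (median -0.45), and 2 lower and 1 higher under anti-CTLA-4 (median -0.16), beside 34.3% and 40.0% of all genes called in either direction. Pcolce, which speeds the removal of the procollagen C-terminal end, averaged 94.1 CPM in LDHA-KD anti-CTLA-4 and 86.0 CPM in LDHA-KD IgG tumours, against 217 CPM in control anti-CTLA-4 and 215 CPM in control IgG tumours. Its log2 fold change was -1.32 ± 0.13 (adjusted p 3.57e-07) under IgG and -1.20 ± 0.12 (adjusted p 5.81e-07) under anti-CTLA-4. Bmp1, the protease itself, gave -0.45 ± 0.09 (adjusted p 0.000748) under IgG and -0.33 ± 0.09 (adjusted p 0.00555) under anti-CTLA-4. The lysyl oxidase genes Lox and Loxl2 were lower under IgG, at -1.17 ± 0.27 (adjusted p 0.00218) and -1.17 ± 0.22 (adjusted p 0.000513). Tgm2, a transglutaminase, was higher under anti-CTLA-4 (0.75 ± 0.15 (adjusted p 0.000789)). Among 13 fibril-associated proteoglycan and glycoprotein genes, 4 were lower and 0 higher under IgG (median -0.46), while 1 was lower and 2 were higher under anti-CTLA-4 (median 0.10), so that under anti-CTLA-4 both lists had a smaller share of calls than all genes. Sparc, a collagen-binding glycoprotein, gave -0.88 ± 0.16 (adjusted p 0.000368) under IgG, and Thbs2, Bgn and Fmod were also lower there, at -0.77, -0.86 and -1.64. Under anti-CTLA-4 the fibril-coating proteoglycan genes Dcn and Lum were higher, at 0.83 ± 0.23 (adjusted p 0.00815) and 0.61 ± 0.16 (adjusted p 0.00535), and Fmod was lower at -1.06. The anti-CTLA-4 total of the trimming and crosslinking list was 5 without LDHA-KD anti-CTLA-4 replicate 3 or the 4 low-scoring libraries, and that of the proteoglycan list was 5 without control anti-CTLA-4 replicate 1.

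Of 9 tested collagen receptor and uptake genes, 4 were lower and 1 higher under IgG (median -0.45), and 2 lower and 3 higher under anti-CTLA-4 (median -0.05), where 34.3% and 40.0% of all genes were called. Lair1, an inhibitory collagen receptor of immune cells, was higher under both, at 1.18 ± 0.19 (adjusted p 0.000106) under IgG and 1.23 ± 0.18 (adjusted p 3.30e-05) under anti-CTLA-4. The integrin subunit gene Itgb1 gave -0.50 ± 0.11 (adjusted p 0.00166) under IgG and -0.49 ± 0.11 (adjusted p 0.00124) under anti-CTLA-4, and the receptor kinase gene Ddr1 was lower under both as well, at -0.45 and -0.48. Mrc2, an uptake receptor for collagen fragments, was lower under IgG at -0.72, and Ddr2 was higher under anti-CTLA-4 at 0.22. Among 10 partners of type IV collagen in basement membranes, 6 were lower and 1 higher under IgG (median -0.27), and 3 lower and 1 higher under anti-CTLA-4 (median -0.15), the share of all genes called there being 40.0% as well. The linker gene Nid2 gave -0.84 ± 0.13 (adjusted p 5.01e-05) under IgG and -0.64 ± 0.12 (adjusted p 0.000351) under anti-CTLA-4. Nid1, the laminin gene Lama4 and Pxdn, which crosslinks type IV collagen, were lower under IgG at -0.94, -0.77 and -0.43. Under anti-CTLA-4 Pxdn and Lamb1 were lower at -0.27 and -0.19, and Agrn was higher at 0.33. The total for the partners under anti-CTLA-4 was 2 without LDHA-KD anti-CTLA-4 replicate 1, control anti-CTLA-4 replicate 2 or control anti-CTLA-4 replicate 4, and the receptor total was 3 without control anti-CTLA-4 replicate 5 or the 4 low-scoring libraries.

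Endothelial markers were lower in LDHA-KD tumours in larger numbers than fibroblast markers. Of 12 endothelial markers 11 were lower under IgG and 8 under anti-CTLA-4, beside 17.5% and 19.8% of all genes called lower, and their sum was 305 to 451 CPM in LDHA-KD anti-CTLA-4 and 261 to 333 CPM in LDHA-KD IgG tumours, against 453 to 497 CPM in control anti-CTLA-4 and 418 to 542 CPM in control IgG tumours. Of 10 pericyte and smooth muscle markers 6 were lower under IgG and 5 under anti-CTLA-4, and their sum was 215 to 373 CPM in LDHA-KD anti-CTLA-4 and 229 to 258 CPM in LDHA-KD IgG tumours, against 372 to 478 CPM in control anti-CTLA-4 and 446 to 497 CPM in control IgG tumours. The summed levels of both lists did not overlap between genotypes under either antibody, except for the pericyte and smooth muscle list under anti-CTLA-4. Of 10 fibroblast markers 4 were lower and 1 higher under IgG, and 1 lower and 1 higher under anti-CTLA-4, a share of calls below the 40.0% of all genes under that antibody. Their sum was 869.9 to 1268 CPM in LDHA-KD anti-CTLA-4 and 847 to 968 CPM in LDHA-KD IgG tumours, against 973 to 1157 CPM in control anti-CTLA-4 and 878 to 1136 CPM in control IgG tumours, with overlap between genotypes under both antibodies. Pdgfra, a receptor of fibroblasts, was the higher one, at 0.55 ± 0.14 (adjusted p 0.00444) under IgG and 0.82 ± 0.13 (adjusted p 6.94e-05) under anti-CTLA-4, and Serpinf1, Thy1 and Mfap5 were lower under IgG at -1.10, -0.55 and -0.52. The fibroblast total under anti-CTLA-4 was 1 without any of LDHA-KD anti-CTLA-4 replicates 3, 4 and 5, LDHA-KD IgG replicate 5 and control anti-CTLA-4 replicates 1, 3 and 5. No marker of the fibroblast, endothelial, pericyte or epithelial list was at 0. The part of these cells in the collagen results was not tested.

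Of 10 epithelial markers, which include those of the carcinoma cells, 3 were lower and 1 higher under IgG, and 5 lower and 1 higher under anti-CTLA-4. Of all genes, 34.3% were called under IgG (17.5% lower) and 40.0% under anti-CTLA-4 (19.8% lower). Their sum was 2171 to 3369 CPM in LDHA-KD anti-CTLA-4 and 3072 to 3422 CPM in LDHA-KD IgG tumours, against 3824 to 4749.8 CPM in control anti-CTLA-4 and 3769.9 to 4940.2 CPM in control IgG tumours, without overlap between genotypes under either antibody. Epcam, an adhesion molecule of epithelial cells, averaged 112 CPM in LDHA-KD IgG tumours, against 512 CPM in control IgG tumours (-2.19 ± 0.18 (adjusted p 4.52e-08)), and Cldn7, a tight junction protein, was the higher one (1.38 ± 0.10 (adjusted p 1.23e-08)). Of cartilage and bone markers, Acan, Matn1, Hapln1, Sp7 and Bglap were below 1 CPM in every library. Among the 4 of this list that were tested, Ibsp, a bone matrix protein, was higher in LDHA-KD tumours at 3.48 ± 0.26 (adjusted p 1.42e-08) under IgG and 3.67 ± 0.24 (adjusted p 3.85e-09) under anti-CTLA-4, Alpl was also higher, and Runx2 was lower at -0.70 and -0.64. Skeletal muscle markers gave 2 lower of 8 under each antibody, adipocyte markers 0 under IgG and 2 lower of 8 under anti-CTLA-4, and nerve sheath markers 0 of 4 under each. These counts stand beside the same 17.5% and 19.8% of all genes called lower. The 0 counts are by edgeR, with 0 adipocyte and 0 nerve sheath genes at an unadjusted p below 0.05 under IgG. The adipocyte total under anti-CTLA-4 was 0 without the 4 low-scoring libraries and without control anti-CTLA-4 replicate 5, whose summed adipocyte markers were 838 CPM, and 5 without control anti-CTLA-4 replicate 4.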

How the data were processed

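Poly(A)-selected RNA of implanted tumours was sequenced from a stranded TruSeq kit. The authors deposited raw counts for each gene, without normalization, with 1 column per sample. HTSeq 0.5.3, Picard 1.124 and build mm10 were named, without their roles, per the submitters' processing notes. Which aligner, which annotation release and which strand setting were used is not given in the sources used here. Reads of antisense and overlapping genes (Col4a1 with Col4a2, for example) may therefore have been credited to the wrong gene or left out as ambiguous. Ambiguous reads were 1.56% to 1.92% of a library. Gene identifiers matched GENCODE on GRCm38 for 46488 of 46983 genes. No per-sample column was left without a sample.

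The tests were run with edgeR 4.0.16 (R 4.3.3). The filter filterByExpr kept 16763 genes, TMM factors scaled the libraries, and a single quasi-likelihood model over the 19 samples had 1 coefficient per group. Benjamini-Hochberg adjustment covered the 16763 genes, and calls needed an adjusted p below 0.05. The script was tested on simulated data. CPM uses TMM-scaled totals, the 1 CPM limit unscaled totals, and 3 counts correspond to 0.0693 to 0.0944 CPM, which covers counting error only. No pair of libraries agreed within sampling noise (lowest chi-square per gene 5.21).

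The members, the 3 classes and 13 lists of companion and marker genes were chosen with earlier results of these data known. Each member is named, values by sample are given for the 4 most abundant of a class and for calls with an absolute log2 fold change of at least 1 (Col7a1 was added after its values were seen), and up to 4 called genes of smallest p are named per companion list. Of the listed symbols only Cnmd was not found in the counts. Promoters were looked up for 33 members, of which 28 had an entry. Alternatives were other scaling factors, other filters, DESeq2 1.42.0, limma voom (limma 3.58.1), only the groups compared, a replicate block, and leaving out libraries.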

Additional observations from a re-analysis of the deposited data

Results flagged for a closer look

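In 132 sets of 4 or 5 values (each of 33 genes in each of 4 groups), a single tumour lay farther from its group than the limit of Dixon's test in 4 sets (3.03%), and chance gives about 1 in 20. Col3a1, the type III collagen gene, was 949.8 CPM in control IgG replicate 1, against 1858 to 1991 CPM in the other 3 tumours of that group. Col6a2 of collagen VI was 255 CPM in control anti-CTLA-4 replicate 2, against 163 to 187 CPM in the other 4. Col6a3 of collagen VI was 269 CPM in LDHA-KD IgG replicate 3, against 159 to 182 CPM in the other 4. The fibril-associated collagen gene Col16a1 was 149.8 CPM in LDHA-KD IgG replicate 2, against 139.6 to 142 CPM in the other 4, a small gap in a group of narrow range.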

How the results depend on the processing

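Under the 10 processing alternatives the counts of calls left 1.5 times the reported count in these cases. Under IgG, 2 basement membrane collagens in place of 1 were called lower with only the groups compared, with the replicate block and without the 4 low-scoring libraries. Those libraries all belong to the anti-CTLA-4 groups, so fewer tumours are compared there without them. Then 7 members in place of 3 and 3 fibrillar genes in place of 0 were called lower under anti-CTLA-4. Trimming and crosslinking genes gave 5 calls there in place of 3, receptors 3 in place of 5, adipocyte markers 0 in place of 2 and all genes 4308 in place of 6711. With library totals only, 1 fibrillar collagen in place of 0 was called higher under anti-CTLA-4, basement membrane partners gave 2 calls in place of 4, endothelial markers 5 in place of 8 and fibroblast markers 1 in place of 2, and under IgG fibroblast markers gave 3 in place of 5. Fibroblast markers under anti-CTLA-4 also gave 1 with upper quartile factors and with no filter, adipocyte markers there 1 with limma voom, and nerve sheath markers under IgG 1 in place of 0 with only the groups compared. For anti-CTLA-4 against IgG, DESeq2 called 2 companion genes, of the nerve sheath and the trimming and crosslinking lists, in LDHA-KD tumours, and 50 of all genes there and 11 in control tumours, in place of 0. Single members that passed only under an alternative were, under IgG, Col5a1 and Col24a1 with only the groups compared and Col16a1 with upper quartile factors, library totals only or limma voom. Under anti-CTLA-4 they were Col6a3 with the replicate block or without the 4 low-scoring libraries, Col5a2, Col5a3 and Col27a1 without those libraries, and Col11a2 with library totals only. Col4a5 under IgG passed with only the groups compared, with the replicate block and without those libraries. No result changed its sign past the threshold, and the causes were not tested. Leaving out each of the 19 libraries gave, under IgG, 12 to 16 members called, 9 to 14 lower and 4 to 7 fibrillar lower. Under anti-CTLA-4 it gave 2 to 5 members higher, 3 to 6 lower, 0 to 1 fibrillar higher, 0 to 2 fibrillar lower and 0 to 1 basement membrane lower. To look for pairing, the log2 CPM of each tested gene was taken as its deviation from the mean of the tumour's own group. These deviations, not the levels themselves, correlated by -0.43 to 0.49 between same-numbered tumours of different groups (median 0.15, 27 pairs, 17 over 0.1). Over 108 differently numbered pairs the median was -0.065, with 33 of them over 0.1. All 6 pairs of replicate 3 and all 3 of replicate 2 were over 0.1, but 1 of 6 of replicate 4 and 2 of 6 of replicate 5 were, and 7 of 19 tumours correlated best with one of their own number. This is a hint from the data, and the labels give no pairing. With the replicate block 16 of 33 members were called under IgG in place of 15, and 7 under anti-CTLA-4 in place of 6. Counts of members in this section cover all 33, Col13a1 and Col20a1 included. At 3 counts as the floor, only genes above 0.0693 to 0.0944 CPM can be told from absence.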
